A study of Mus musculus with 4 samples.

Results

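The natural killer gene complex is a run of lectin-like receptor genes on mouse chromosome 6, here examined for H3K9me3, the trimethylated form of histone H3 lysine 9 that marks heterochromatin. The genes were chosen by name and place: protein-coding genes of the RefSeq table on chromosome 6 whose symbol begins with Klr or Clec2. Of 21795 protein-coding genes counted, 35 met this rule. Another 2, Klra16 and Klra23, are listed at 149512 to 173164 and 553984 to 576907, before the first island on any autosome (3032001), and were not counted. The 35 were 11 Klra, 8 Clec2, 5 Klrb, 3 Klrc, 2 Klri and 2 Klrg genes, and Klrd1, Klre1, Klrh1 and Klrk1. In all, 32 of them lay with no gap above 1 Mb between neighbours, from Klrb1a to Klra2 (mm10 chromosome 6, 128609227 to 131247716, 2638.49 kb), and this interval is called the complex below. The other 3 lay apart on the same chromosome: Klrg2, Clec2l and Klrg1.

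Native ChIP-seq, which uses chromatin cut by micrococcal nuclease without cross-linking, was made from C57BL/6 wild-type CD8+ T cells. The day 0 group was naive cells, and the day 3 group was cells cultured with antibodies to CD3 and CD28 in the presence of IL-2. There was 1 ChIP library per day, from 4000000 cells, so no difference below has a replicate check, no test between days was possible, and each difference is one between 2 libraries. How many animals stand behind a library is not stated in the labels, and the input libraries, 1 per day, were not analysed here.

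Many of these genes encode receptors by which natural killer cells and some T cells read major histocompatibility complex class I and stress-induced molecules on other cells. The Klra genes encode the Ly49 receptors of rodents, which bind classical class I molecules. Klrd1 (CD94) pairs with the Klrc (NKG2) chains to bind Qa-1, a non-classical class I molecule, and Klrk1 (NKG2D) is an activating receptor for stress-induced ligands. The Klrb1 (NKR-P1) receptors include partners of Clec2 (Clr) proteins, whose genes lie among theirs. CD8+ T cells can gain several of these receptors after activation.

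An island is a region of adjoining enriched windows that the authors' analysis listed as significant. The day 0 list held 19989 islands with 3402787 reads in them, and the day 3 list 47553 islands with 10423178 reads. Island density started at 23.6 reads per kb in the day 0 list and at 34.1 in that of day 3, with no correction for depth, so that a region listed on day 0 alone could hold a density that no day 3 island had. Genes without an island are described as such, and their mark level is unknown. None of 6 T cell marker genes (Cd3e, Cd3d, Cd8a, Cd8b1, Trac, Lck) carried an island on either day, nor did 3 natural killer cell markers (Ncr1, Eomes, Klrb1c). Of the other markers, Ms4a1 of B cells carried one on day 3 and Csf1r of myeloid cells on day 0. Islands do not measure expression, so the purity of the cells cannot be read from them.

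Of the 31 members with a listed gene start, 1 had that start inside an island on day 0 and 3 on day 3. Of 17492 protein-coding genes with a listed start, 1.51% and 2.21% did. The sequences before those 3 starts are shown here because they mark where islands met a promoter. Each is the 250 bases before the start on the minus strand of mm10 (RefSeq, GRCm38.p6), 5′ to 3′, with every CG dinucleotide in capitals.
Klrk1 (chr6:129623865-129624114): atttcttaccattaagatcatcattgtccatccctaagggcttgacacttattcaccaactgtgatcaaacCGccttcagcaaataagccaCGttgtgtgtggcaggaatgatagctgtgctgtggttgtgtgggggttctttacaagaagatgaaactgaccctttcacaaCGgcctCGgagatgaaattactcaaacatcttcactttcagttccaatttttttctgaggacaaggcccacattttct
Klri1 (chr6:129717133-129717382): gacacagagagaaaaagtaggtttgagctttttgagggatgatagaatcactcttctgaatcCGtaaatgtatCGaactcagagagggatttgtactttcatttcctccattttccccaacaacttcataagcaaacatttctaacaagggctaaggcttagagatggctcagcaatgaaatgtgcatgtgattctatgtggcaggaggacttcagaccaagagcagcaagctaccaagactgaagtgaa
Klra17 (chr6:129876673-129876922): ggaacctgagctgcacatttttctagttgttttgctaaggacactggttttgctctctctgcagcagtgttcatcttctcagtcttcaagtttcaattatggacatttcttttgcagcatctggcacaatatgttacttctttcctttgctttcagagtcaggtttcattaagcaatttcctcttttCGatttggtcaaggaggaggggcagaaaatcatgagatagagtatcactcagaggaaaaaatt
The starts of Klrk1 and Klri1 lay in islands on day 3 and that of Klra17 on both days. CG was found 4 times before Klrk1, 2 times before Klri1 and once before Klra17. Among 27025 gene entries of the same length, which were not limited to protein-coding genes, the median was 6, and 91.7% held at least one CG. An entry with no more CG than Klrk1 was found in 44.5% of them, than Klri1 in 29.6% and than Klra17 in 19.4%.

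On day 0, 4 of the 35 members (11.4%) carried an island over at least 1 bp of their body: Klre1, Klrd1, Klra17 and Klra2. Of all protein-coding genes 22.7% did, and 15.8% of the 11276 with a body as long as the members' (5921 to 50327 bp). On day 3, 12 members (34.3%) carried one, against 27.2% of all protein-coding genes and 20.9% of those in the length range. These were Klrg2, Clec2f, Klrb1f, Clec2e, Clec2m, Klre1, Klrd1, Klrk1, Klri1, Klri2, Klrh1 and Klra17. By pattern, 3 members had islands on both days (7.9% of genes in the length range), 1 had them on day 0 alone (7.87%), 9 on day 3 alone (13.0%) and 22 on neither day (71.2%). At least 50% of the body was covered in no member on day 0 and in 4 on day 3, against 0.842% and 2.09% of genes in the length range. The share of members with an island was thus lower than the background on day 0 and higher on day 3. These shares rest on 4 and 12 genes, and their distance from the background was not tested. Members are also neighbours that can share an island, as Klre1 and Klrd1 did on day 3. Over their 616.711 kb of gene body, islands covered 19.381 kb (3.143%) on day 0 and 69.218 kb (11.22%) on day 3. In the genes of the same length range they covered 3.953% and 6.172%. The median member had no base covered on either day, as had the median gene of the length range.

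**Figure D1:**
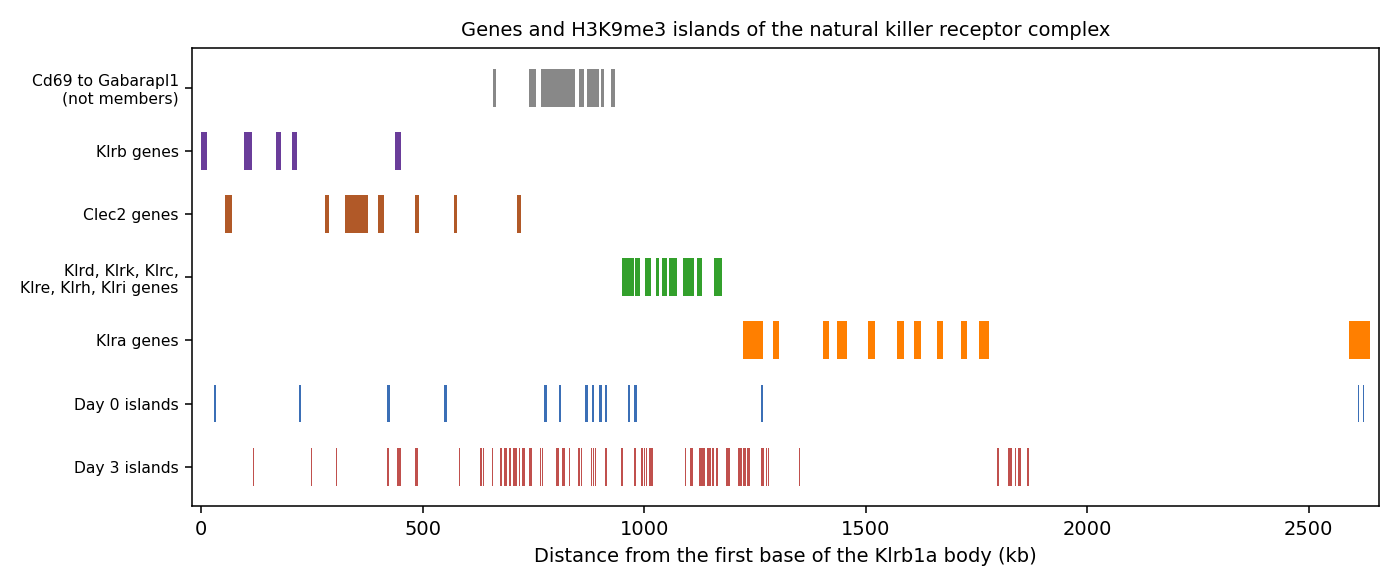
Map of the complex with distance from the first base of the Klrb1a body in kb on the horizontal axis; blocks are gene bodies (upper 5 rows) and islands of day 0 and day 3 (1 library each), all to scale. The 58 day 3 islands crowd the middle of the complex, and none lies over the 8 genes from Klra6 to Klra1.

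Klrd1 and Klre1, whose products form heterodimers with Klrc and with Klri chains, were the members covered on both days with fewer covered bases on day 3. In Klrd1 (129588092 to 129598775), 4.909 kb or 45.95% of the body lay in a day 0 island (129586001 to 129593000) with 235 reads (95% Poisson interval 206 to 267). On day 3, 1.709 kb or 16.0% lay in an island (129585001 to 129589800) with 216 reads (188 to 247). All 1.709 kb were covered on both days. The day 3 island was the denser, at 45.0 reads per kb against 33.6, but that was the lowest density among the day 3 islands of the complex. The day 0 island was less dense than any day 3 island, and when only islands of at least 34.1 reads per kb were counted the sign of the Klrd1 difference turned, from -3.2 kb to 1.709 kb (day 3 less day 0). Klre1 (129559365 to 129585828) was covered over 3.6 kb (13.6%) on day 0 by an island with 127 reads, which ended 1.413 kb before the listed gene start. On day 3 it was covered over 1.464 kb (5.532%), at both ends of the body, and none of these bases was covered on day 0.

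Klrk1 (129610323 to 129623903), the gene of NKG2D, had no island on day 0, and the nearest lay 17.323 kb away. On day 3 it carried 3 islands that covered 7.581 kb, or 55.82% of the body. The longest, of 9.6 kb (129619601 to 129629200), held 517 reads (473 to 564) and spanned the gene start shown above. The other 2 held 177 and 137 reads. This put the promoter and the first part of Klrk1, as well as most of its body, in islands on day 3 alone.

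The 3 Klrc genes, which encode the NKG2 chains that pair with CD94, had no island on either day. On day 3 the nearest island lay 7.063 kb from Klrc3, 20.402 kb from Klrc2 and 17.949 kb from Klrc1. On day 0 the distances were 43.263, 56.602 and 73.015 kb. Klri1 and Klri2, whose products pair with Klre1, follow directly after them in the order of genes, and both carried islands on day 3 only. Klri1 (129696118 to 129720610) was covered over 10.8 kb (44.09%) by 2 islands with 187 and 413 reads, and the second contained the gene start. Klri2 (129729041 to 129740484) was covered over 7.284 kb (63.65%) by 1 island of 12 kb with 627 reads (579 to 678), the longest island of the complex. Klrh1 (129766568 to 129784270), the next gene, was covered over 4.6 kb (25.98%) on day 3 by an island with 255 reads. On day 0 the nearest islands to Klri1, Klri2 and Klrh1 were 103.118, 131.517 and 87.731 kb away, in a stretch of 279 kb with no day 0 island that held 7 members from Klrk1 to Klrh1. Of 19965 autosomal day 0 stretches, 1974 (9.89%) were at least as long.

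**Figure D2:**
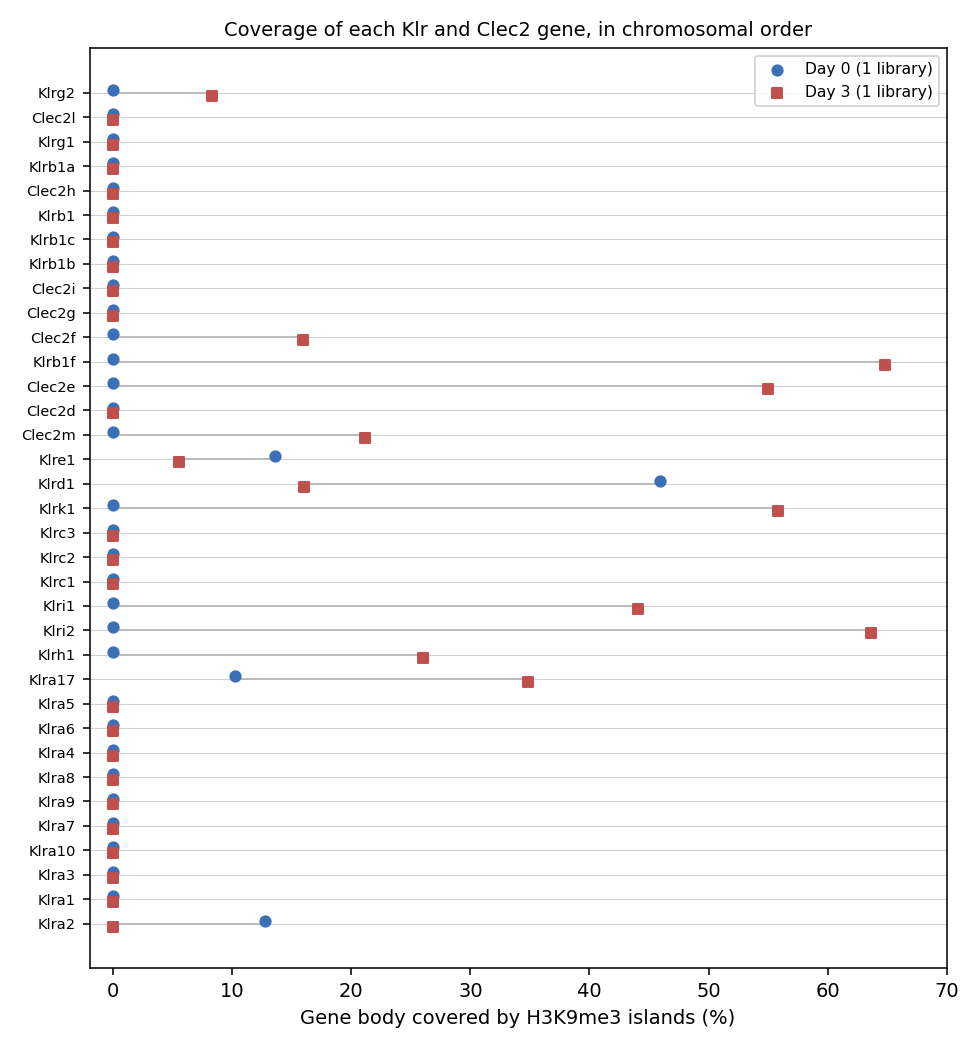
Percentage of each gene body covered by islands (horizontal axis) for the 35 members in chromosomal order; circles are day 0, squares day 3, 1 library each. Klrb1f (64.8%), Klri2 (63.65%), Klrk1 (55.82%) and Clec2e (55.02%) have the highest day 3 values and are at 0 on day 0, and Klrd1, Klre1 and Klra2 are the members with the higher value on day 0.

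Of the 5 Klrb genes, Klrb1f alone carried an island. It encodes an NKR-P1 receptor and was covered over 9 kb (64.8% of 129045837 to 129059724) on day 3 by an island with 467 reads (426 to 511), and had none on day 0. The island lay inside the body and began 4.3 kb after the listed start. Klrb1c, which encodes the NK1.1 antigen, Klrb1a, Klrb1b and Klrb1 had no island. Of these, Klrb1 lay 2.271 kb from a day 3 island of 1.6 kb with 144 reads, and Klrb1b 3.886 kb from a day 0 island. Among the 8 Clec2 genes none carried an island on day 0 and 3 did on day 3. Clec2e (129091816 to 129100903) was covered over 5 kb (55.02%) by an island with 231 reads. Clec2f was covered over 2 kb (15.95%) by one with 121 reads, and Clec2m over 2.036 kb (21.11%) by 2 with 491 and 115 reads. The first of these reached only 0.236 kb into Clec2m. Clec2d, which encodes Clr-b, a ligand of the inhibitory receptor encoded by Klrb1b, had no island, and its nearest was 3.666 kb away on day 3. Clec2g, Clec2h, Clec2i and Clec2l also had none.

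The 11 Klra genes divided by position. Klra17 (Ly49Q, 129831154 to 129876672), at the edge next to Klrh1, was covered over 4.672 kb (10.26%) on day 0 by an island with 156 reads (132 to 182). On day 3 it carried 4 islands with 403, 225, 150 and 257 reads that covered 15.872 kb (34.87%). Of the day 0 bases 3.872 kb were covered again on day 3, among them the gene start, the only member start covered on both days. The 2 day 3 islands that overlapped the day 0 island held 83.3 and 64.2 reads per kb against 31.2, or 2.67 and 2.06 times as many. Over all 7306 overlapping pairs of islands in the 2 lists the median ratio was 1.57 (quartiles 1.43 and 1.72), with no correction for depth. Klra2 (Ly49B, 131198970 to 131247716), alone at the far end, was the member with islands on day 0 only: 2 islands with 108 (89 to 130) and 126 (105 to 150) reads covered 6.2 kb (12.72%). At 41.5 and 35.0 reads per kb both were denser than the least dense day 3 island. The nearest day 3 island was 22.285 kb from it.

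The other 9 Klra genes had no island on either day. Klra5 lay 8.988 kb from the nearest day 3 island. The 8 from Klra6 to Klra1, which include Klra8 (Ly49H) and Klra4 (Ly49D), both activating receptors, lay 19.527 to 212.027 kb from one, and together in a stretch of 444.8 kb without a day 3 island (129961601 to 130406400). Of 47526 stretches between neighbouring day 3 islands on the autosomes, 495 (1.04%) were at least this long, and the median was 18.4 kb. A day 3 stretch of 792.2 kb follows further on, which holds Klra2, and 167 autosomal stretches were at least as long. On day 0 the stretch without an island ran from Klra17 to Klra2 over 1342.8 kb, with 61 of 19965 at least as long and a median of 54 kb.

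Some of the Klra genes share long identical stretches before their starts, and others do not. The sequences below show the pair with the longest such stretch among the Klra genes without islands. In the 250 bases before the start, the pair with the longest identical run among the 8 genes from Klra6 to Klra1 was Klra9 and Klra3, 83.6% identical when aligned, shown with that run of 75 bases in capitals (minus strand, mm10, RefSeq).
Klra9 (chr6:130193113-130193362): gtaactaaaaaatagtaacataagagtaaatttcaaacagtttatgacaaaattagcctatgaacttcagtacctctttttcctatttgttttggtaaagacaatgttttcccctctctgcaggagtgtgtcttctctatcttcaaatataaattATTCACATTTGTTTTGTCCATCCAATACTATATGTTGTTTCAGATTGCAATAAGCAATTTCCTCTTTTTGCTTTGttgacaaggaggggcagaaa
Klra3 (chr6:130337627-130337876): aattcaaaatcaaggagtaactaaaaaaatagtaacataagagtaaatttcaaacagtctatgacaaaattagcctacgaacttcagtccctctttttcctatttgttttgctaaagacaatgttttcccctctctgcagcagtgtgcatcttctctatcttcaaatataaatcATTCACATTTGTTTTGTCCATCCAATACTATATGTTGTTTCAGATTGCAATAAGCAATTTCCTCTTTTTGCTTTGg
Klra4 and Klra8 were 84.5% identical, the highest of the 28 pairs among these 8 genes, whose median was 48.8%. The median over pairs of members from different subfamilies was 49.2%. The alignment ran end to end over fixed windows of 250 bases, so a stretch shared at different distances from the start can score low. Klra6 and Klra3 had the lowest identity of the 28 pairs, 39.7%, but shared an identical run of 51 bases. How alike the median pair was can therefore not be read from its identity alone. The genes themselves were not compared, and sequence outside these bases was not analysed here. Of the 31 members with an entry, 6 were at least 80% identical to another member in these bases. These were Klra4, Klra8, Klra9 and Klra3, all in the stretch without islands described above, and Clec2e and Clec2h. Of the 6, 1 carried an island (Clec2e, 82.2% identical to Clec2h), and of the 25 below 80%, 9 did. Klra17, which had islands on both days, fell just below that limit, at 79.4% identity to Klra4. Neighbouring members are not independent, and these counts were not compared by a test. The handling of reads that match several places is not stated in the sources, and the part of sequence likeness in the island-free stretch was not tested.

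Over the whole complex, islands covered 75.8 kb (2.873%) on day 0 and 254.8 kb (9.657%) on day 3, which is 3.36 times as much. The autosomes had 4.181% and 8.261%, a ratio of 1.98, and chromosome 6 had 4.734% and 8.431%. When as many day 3 as day 0 islands were counted, taking the 19989 with the highest read numbers, the complex had 2.44 times as much on day 3 and the autosomes 1.18 times. Taken from the first to the last member on the chromosome, with Klrg2, Clec2l and Klrg1 inside (38616329 to 131247716), the shares were 4.216% and 7.528%, a ratio of 1.79, below that of the autosomes, so the value depends on where the borders are set.

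Coverage differed along the complex, whose segments were drawn by gene order after the islands had been seen. From Klrb1a to Clec2d, where 11 members lie, it was 3.741% on day 0 and 4.989% on day 3. With the reduced day 3 list the latter was 3.153%, below day 0. From Clec2d to Klre1 it was 8.69% and 24.67%, in 6 and 23 islands. This segment holds Clec2m and other lectin-like genes that are not Klr or Clec2 genes, such as the activation antigen gene Cd69, Clec7a (dectin-1) and Olr1. From Klre1 to Klra17, with the Klrd, Klrk, Klrc, Klri and Klrh genes, it was 3.9% and 30.04%, or 7.7 times as much on day 3. The autosomes had a ratio of 1.98. With the reduced day 3 list the ratio was 6.79, against 1.18 for the autosomes. It was 13.5, against 2.0, when only islands of at least the median density of their list were counted. With islands at least as dense as the least dense day 3 island it was 22.7, against 4.71. That last selection removes day 0 islands only, so a ratio can only rise under it. From Klra17 to Klra5 the shares were 6.091% and 27.53%, from Klra6 to Klra1 both were 0, and from Klra1 to Klra2 they were 0.7202% and 3.206%.

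**Figure D3:**
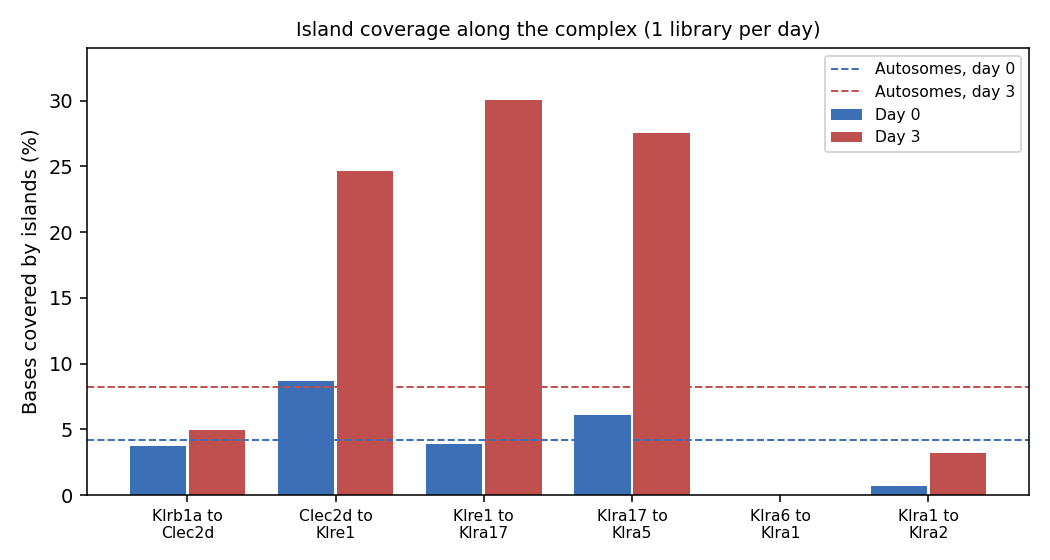
Percentage of bases covered by islands in 6 segments of the complex on day 0 and day 3 (bars, 1 library each, no error bars); dashed lines are the shares of all autosomes, 4.181% and 8.261%, and the space between Klra5 and Klra6 is not drawn. The 3 segments between Clec2d and Klra5 stand at 24.67 to 30.04% on day 3, and Klra6 to Klra1 has no bar because both values are 0.

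In tiles of 1 Mb, the one from 129000001 was covered by 6.1% on day 0 and 22.02% on day 3. Of 2394 autosomal tiles, 583 were covered at least as much on day 0 and 77 on day 3, and the medians were 3.5% (quartiles 1.84 and 6.04) and 7.18% (3.36 and 11.84). This tile holds the members from Clec2f to Klra5 and the other genes from Cd69 to Olr1. Its segment from Clec2d to Klre1, mostly of genes that are not members, had 32.4 kb covered on day 0 and 91.964 kb on day 3. From Klre1 to Klra17 it was 10.6 kb and 81.636 kb. The tile from 130000001, with the Klra6 to Klra1 genes, had no covered base on day 0 and 2.76% on day 3. The 2 outer tiles had less on day 3 than on day 0, with 3.06% and 1.16% from 128000001 and 3.98% and 2.46% from 131000001. Of the 4 tiles over the complex, 2 thus had more covered bases on day 3 and 2 had fewer. The 2 outer tiles reach beyond the complex, which runs from 128609227 to 131247716, so their values include islands outside it.

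Most islands of the complex lay outside the member genes. Member bodies make up 21.4% of its bases, and they held 25.6% of the covered bases on day 0 and 26.4% on day 3. Bodies of other protein-coding genes, 9.25% of the complex, held 26.2% and 19.8%. The rest, 48.2% on day 0 and 53.8% on day 3, lay outside both. By number, 5 of 15 day 0 islands and 18 of 58 day 3 islands touched a member.

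Overlap between the days in the complex was close to that over the autosomes. Of the 15 day 0 islands, 5 shared bases with a day 3 island (33.3%, 95% Wilson interval 15.2 to 58.3), and over the autosomes 33.6% did. In the other direction 7 of 58 day 3 islands overlapped one of day 0 (12.1%, interval 5.97 to 22.9), against 14.9%. Both intervals held the autosomal share, but they are wide and treat islands as independent. At Olr1, and likewise at Klra17, neighbouring day 3 islands overlapped the same day 0 island. The overlaps lay at Klrd1, Klra17, Olr1, between Tmem52b and Gabarapl1, and between Clec2f and Klrb1f. The median day 3 to day 0 ratio of density in these 7 pairs was 1.85. Reads per kb in the islands of the complex ran from 27.4 to 41.5 on day 0 (median 33.8) and from 45.0 to 92.5 on day 3 (median 56.1). The medians of all autosomal islands were 34.1 and 52.9, and 6 of 15 and 38 of 58 islands of the complex reached the median of their list.

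**Figure D4:**
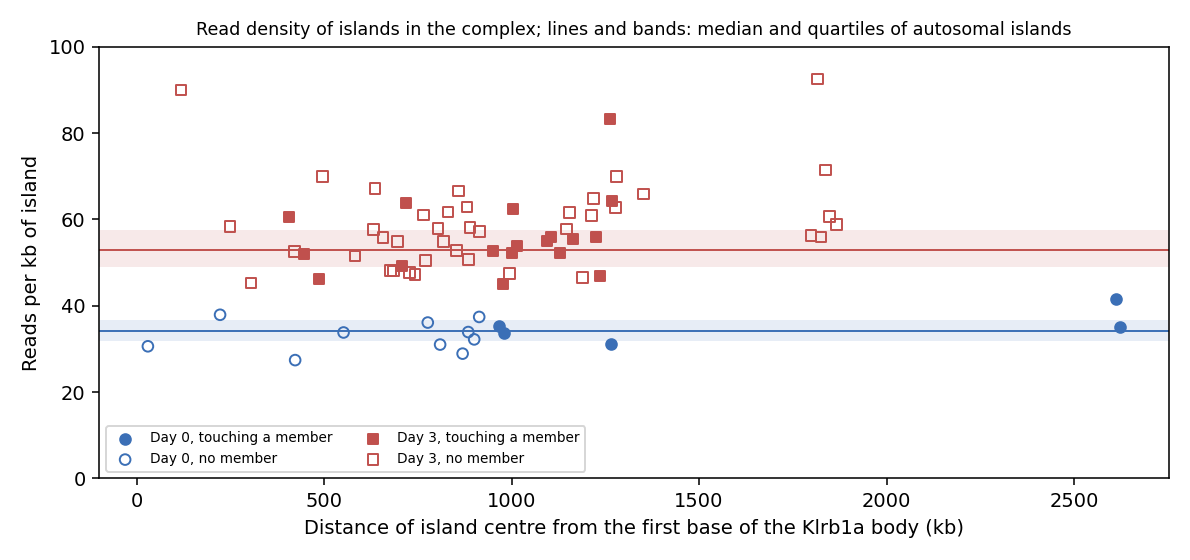
Reads per kb of each island in the complex (vertical axis, not scaled for depth) against the distance of its centre from the first base of the Klrb1a body in kb; filled symbols touch a member, circles are day 0 and squares day 3. Lines and bands give the median and quartiles of all autosomal islands, 34.1 (31.9 to 36.7) on day 0 and 52.9 (49.0 to 57.5) on day 3, and every day 3 island of the complex lies above every day 0 island.

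Among genes around the members, 26 listed neighbours on chromosome 6 were counted, and 6 carried an island on day 0 and 12 on day 3. Of all protein-coding genes 22.7% and 27.2% did. Outside the complex, those with an island were Styk1 on both days, Ybx3 on day 0, and Tas2r104, Tas2r105, Tas2r108 and A2m on day 3. Inside the complex lie 10 of the 26. Of these, 4 carried an island on day 0 (Clec12b, Clec9a, Olr1 and Tmem52b) and 7 on day 3 (Cd69, Clec12a, Clec12b, Clec1a, Clec7a, Clec9a and Olr1). Clec9a, a receptor of cross-presenting dendritic cells, was covered over 36.47% and 34.99%, and Olr1, a receptor for oxidized lipoprotein, over 26.95% and 29.79%. Clec7a was covered over 50.11% on day 3 only. Cd69 was covered over 0.277 kb, or 3.44%, on day 3 only. Of the 32 members inside the complex, 4 and 11 carried islands on these days. The 10 neighbours overlap and share islands, and the difference between the groups was not tested.

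Genes that act with the receptors but lie elsewhere were counted from a second list of adaptors, signalling proteins, ligands and related receptors, of which 24 of 28 were found in the table. An island was present in 3 on day 0 and 5 on day 3, not above the share of all protein-coding genes (22.7% and 27.2%). The related receptor genes Cd226, Cd96 and Tigit carried islands on both days, and H2-M3, a non-classical class I gene, and Cdh1, which encodes the Klrg1 ligand E-cadherin, on day 3 only. H2-M3 was covered over 1.885 kb or 44.33%, and Cdh1 over 7.8 kb or 11.66%. The adaptor genes Tyrobp and Hcst, the kinase genes Syk and Zap70, the phosphatase genes Ptpn6, Ptpn11 and Inpp5d, and the Qa-1 gene H2-T23 had none on either day.

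The members outside the complex carried little. Klrg1, a marker of terminally differentiated effector CD8+ T cells, had no island on either day, but a day 3 island lay 0.396 kb from its body. On day 0 the nearest was 46.568 kb away. Klrg2 was covered over 1.872 kb (8.325%) at the edge of its body on day 3 by an island with 133 reads (111 to 158), 19.039 kb from its start. Clec2l, its neighbour, had none.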

How the data were processed

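H3K9me3 native ChIP-seq islands of 2 libraries, day 0 and day 3, were used, each mapped to its day by the titles in the labels. The submitters' processing notes name Bowtie2, SICER version 1.1 and mm10. Threshold, gap setting, handling of duplicate and multiply mapped reads, and use of input are not stated there. Each island in the lists the authors deposited carries a whole number without a header, read here as a raw count of reads, not scaled for depth, length or input. Per the labels' protocols, each library had around 100000000 reads, paired-end and 150 bases long, and the mapped depth is unknown.

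Borders were converted to 1-based mm10 coordinates. They are multiples of 200 bp, with at least 800 bp between islands. Gene bodies came from the RefSeq table of GRCm38.p6, the assembly mm10 names. A further 105 protein-coding genes listed wholly before base 3000001 of an autosome were left out. Gene starts and sequences came from the RefSeq promoter table, first entry per gene, which held 31 of 35 members. Coverage was computed in Python 3.11.15 with numpy 2.4.6 and pandas 2.3.3, and checked on simulated islands. Identity is from a global alignment (Biopython 1.88). Intervals are 95% exact Poisson (reads) or Wilson (shares of islands), and cover counting error only.

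Every member with an island was named, and neighbour and pathway genes where covered. Members and lists were chosen with earlier results of these data known. The alternatives were other selections of islands, overlaps of 10% and 50%, a flank of 5 kb, and other borders. No p-value was computed, since each day has 1 library.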

Additional observations from a re-analysis of the deposited data

How the results depend on the processing

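When only islands of at least the median density of their list were counted, members with an island numbered 2 instead of 4 on day 0 and 7 instead of 12 on day 3. Their covered bases were 9.8 kb instead of 19.381 kb and 38.647 kb instead of 69.218 kb, and the covered share of the complex was 0.8717% instead of 2.873% and 5.564% instead of 9.657%. With islands at least as dense as the least dense day 3 island, the day 0 values were again 2 members, 9.8 kb and 0.8717%, and the day 3 values did not move, since no day 3 island is removed. With the day 3 list reduced to the length of the day 0 list, 54.432 kb of the members and 7.019% of the complex were covered on day 3 instead of 69.218 kb and 9.657%. Counting only members covered over at least 50% of the body left 0 on day 0 and 4 on day 3. From the first to the last member of the chromosome, 4.216% and 7.528% were covered instead of 2.873% and 9.657%. Among the 13 members with an island, the sign of the difference between days turned in Klrd1 only, to 1.709 kb, with islands at least as dense as the least dense day 3 island. With the median density, Klrb1f, Clec2e and Klri2 had no island left and Klrd1 had none on either day. With the reduced day 3 list, Klrg2 and Clec2f had none. With all islands and with each of these 3 selections, the complex from Klrb1a to Klra2 was covered more on day 3, by a larger factor than the autosomes (2.44 to 11.1 times against 1.18 to 4.71). The selections are drawn from the same lists and are not independent checks. The one by the least dense day 3 island removes day 0 islands only, so factors can only rise under it. From the first to the last member of the chromosome the factor was below that of the autosomes in the same selections (1.07 to 4.18).

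No paired analysis was possible because each day has 1 ChIP library. Without replicates or input, the spread between cultures is unknown, and the reads needed to list an island differ with a depth that is not given.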
